A study of Homo sapiens with 12 samples.

Results

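The mRNA of 33 genes of cholesterol and fatty acid synthesis was followed in palbociclib-resistant and control melanoma cells. The 33 genes were listed by symbol and looked up by Ensembl identifier in the count tables, 22 of them in the sterol branch and 11 in the fatty acid branch. A row was matched for 32 of the 33, all 22 of the sterol branch and 10 of the fatty acid branch, out of 36675 genes listed in either table. ACACA, the carboxylase that opens fatty acid synthesis, had no row that the name tables used here could match, and it is not analysed further. The 4 groups were A375AR991, a palbociclib-resistant derivative of the human melanoma cell line A375, then A375 itself without treatment, CHL1AR991, a resistant derivative of the melanoma line CHL1, and untreated CHL1. Palbociclib inhibits the cell cycle kinases CDK4 and CDK6. Its concentration was raised over 7 months for A375AR991 and 3 months for CHL1AR991, and resistant cells were then kept in 4 µM of the drug. For the last 72 h before RNA was taken the medium held no palbociclib, so a difference between resistant and control cells is one that was present without the drug. Every group had 3 libraries and each line gave 1 resistant derivative. The labels do not say that the 3 libraries came from separate cultures, so a p-value measures the spread between these libraries, which may be technical. In cultures measured in bulk, fewer cells of a type and less RNA per cell cannot be told apart.

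Both branches start from acetyl-CoA in the cytosol. In the sterol branch the mevalonate pathway builds isoprene units that are joined to squalene, closed to lanosterol and trimmed to cholesterol, and its genes are switched on together by the transcription factor SREBP-2, the product of SREBF2, when membranes lack sterol. In the fatty acid branch carboxylation and the fatty acid synthase make palmitate, which elongases and desaturases extend, and SREBP-1, the product of SREBF1, drives most of these genes. INSIG1 holds both factors in the endoplasmic reticulum while sterol is plentiful and is itself one of their targets, so its mRNA is widely read as a gauge of SREBP activity.

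Binding of these factors is classically described at a sterol regulatory element beside an NF-Y box, and the promoter windows of the genes were searched for both. The RefSeq promoter table (GRCh38.p14, 250 bases before to 50 after a start site) held windows for 29 of the 33 genes, and ACAT2, FDFT1, SQLE and FASN were not among them. On both strands and with overlaps allowed, the letters CACNCCAC, the core of the element, were found in 6 of 29 genes (20.7%), against 7.05% of 27305 genes in the table. The NF-Y letters CCAAT were found in 21 of 29 (72.4%), against 39.7% of all genes, and the E-box CACGTG in 3 of 29 (10.3%), against 8.77%. Of these, 4 genes with the core letters are shown: INSIG1, SCD, the stearoyl-CoA desaturase, SREBF2 and SC5D, a late desaturase of sterol synthesis. The levels of INSIG1, SCD and SREBF2 bear on the results on regulators and on spread between libraries. SC5D is shown as a late sterol gene that was higher in A375AR991 than in A375. The other 2 with the core were IDI1 and ACACA. The lines below give the 250 bases before the start site, 5′ to 3′ on the gene's strand, and capitals mark the 3 motifs on either strand, where GTGG begins a core read on the opposite strand and ATTGG is the NF-Y box read so. They lie on the plus strand at chr7:155297628-155297877 (INSIG1), chr10:100346983-100347232 (SCD), chr22:41832855-41833104 (SREBF2) and chr11:121292602-121292851 (SC5D).
INSIG1: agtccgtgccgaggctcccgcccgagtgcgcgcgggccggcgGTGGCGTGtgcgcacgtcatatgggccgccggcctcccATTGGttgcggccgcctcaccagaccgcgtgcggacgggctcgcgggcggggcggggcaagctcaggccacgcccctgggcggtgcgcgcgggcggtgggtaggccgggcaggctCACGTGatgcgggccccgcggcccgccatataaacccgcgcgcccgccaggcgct
SCD: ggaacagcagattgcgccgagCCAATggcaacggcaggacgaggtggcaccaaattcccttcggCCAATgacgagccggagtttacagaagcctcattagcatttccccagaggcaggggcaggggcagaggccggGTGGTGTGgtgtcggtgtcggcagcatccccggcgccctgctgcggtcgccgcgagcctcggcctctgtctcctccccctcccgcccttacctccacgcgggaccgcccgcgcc
SREBF2: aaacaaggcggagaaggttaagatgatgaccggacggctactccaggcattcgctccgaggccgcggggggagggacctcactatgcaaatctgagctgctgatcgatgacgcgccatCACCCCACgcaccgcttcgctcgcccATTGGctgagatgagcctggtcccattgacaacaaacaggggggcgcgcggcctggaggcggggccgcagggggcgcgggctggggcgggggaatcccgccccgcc
SC5D: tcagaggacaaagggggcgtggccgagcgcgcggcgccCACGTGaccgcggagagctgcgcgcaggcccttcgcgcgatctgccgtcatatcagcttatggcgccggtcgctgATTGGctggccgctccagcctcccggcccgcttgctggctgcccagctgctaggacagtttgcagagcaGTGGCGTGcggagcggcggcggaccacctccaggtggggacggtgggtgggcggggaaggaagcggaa
Counted in bases from the start site, the core begins at -208 in INSIG1, at -114 in SCD, at -132 in SREBF2 and at -68 in SC5D. A match describes letters in this window and is no measurement of binding.

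Total counts ran from 25398920 to 29812686 per library, and 3 counts stood for 0.101 to 0.118 CPM. Levels below are normalised CPM, that is counts divided by library size in the usual unit, after scaling by the TMM factors of a fit to all 12 libraries, and are compared between groups for 1 gene at a time, not between genes. A log2 fold change is resistant over control ± SE, or A375 over CHL1, with a Benjamini-Hochberg adjusted p of edgeR's quasi-likelihood F-test over all genes tested, and a gene is called at an adjusted p below 0.05. The 7 melanocyte lineage genes checked summed to 252.7 to 394 CPM in A375AR991, 414 to 566 CPM in A375, 1161 to 1359 CPM in CHL1AR991 and 1129 to 1369 CPM in CHL1. Most of this was the lineage factor SOX10, while the pigment genes MLANA and PMEL reached at most 0.918 and 1.33 CPM in any library and TYR was matched in the CHL1 table alone, at no more than 0.639 CPM. The 4 keratinocyte and epithelial genes summed to 4.69 to 5.42 CPM in A375AR991 and 20.1 to 28.3 CPM in A375, nearly all of it KRT14. The 4 fibroblast genes summed to 27.9 to 35.3 CPM in A375AR991 and 18.3 to 24.01 CPM in A375, and to 11.5 to 14 CPM in CHL1AR991 and 17 to 22.98 CPM in CHL1. The 2 leukocyte genes reached at most 0.236 CPM in A375AR991, 0.304 CPM in A375, 9.85 CPM in CHL1AR991 and 10.1 CPM in CHL1, nearly all of it PTPRC. The endothelial gene CDH5 reached at most 0.342 CPM. What part other cells had in the results was not tested.

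The first comparison asked how the 2 branches stood in A375AR991 cells against A375. Of the 8 genes of the late sterol steps 4 were lower and 1 higher, while the fatty acid branch gave no call in the fit without a replicate block. In A375AR991 the C4-demethylase subunit NSDHL was at 0.531 times its A375 level, the sterol reductase TM7SF2 at 0.64 times and DHCR7, a reductase of the last steps, at 0.744 times. SC5D stood at 1.33 times, the squalene epoxidase SQLE at 1.201 times and the farnesyl diphosphate synthase FDPS at 1.18 times their A375 levels. Of 22 sterol genes 3 were higher, 6 lower and 13 not called, and of 10 fatty acid genes 0 were called. Calls made up 40.9% of the sterol genes. The 9 calls among 32 genes (28.1%) are set against 28.3% of the 18086 genes tested, 13.4% higher and 14.8% lower, so the share called was close to that of all genes. Median log2 fold changes were -0.11 in each branch, against -0.00084 over all genes tested.

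**Figure D1:**
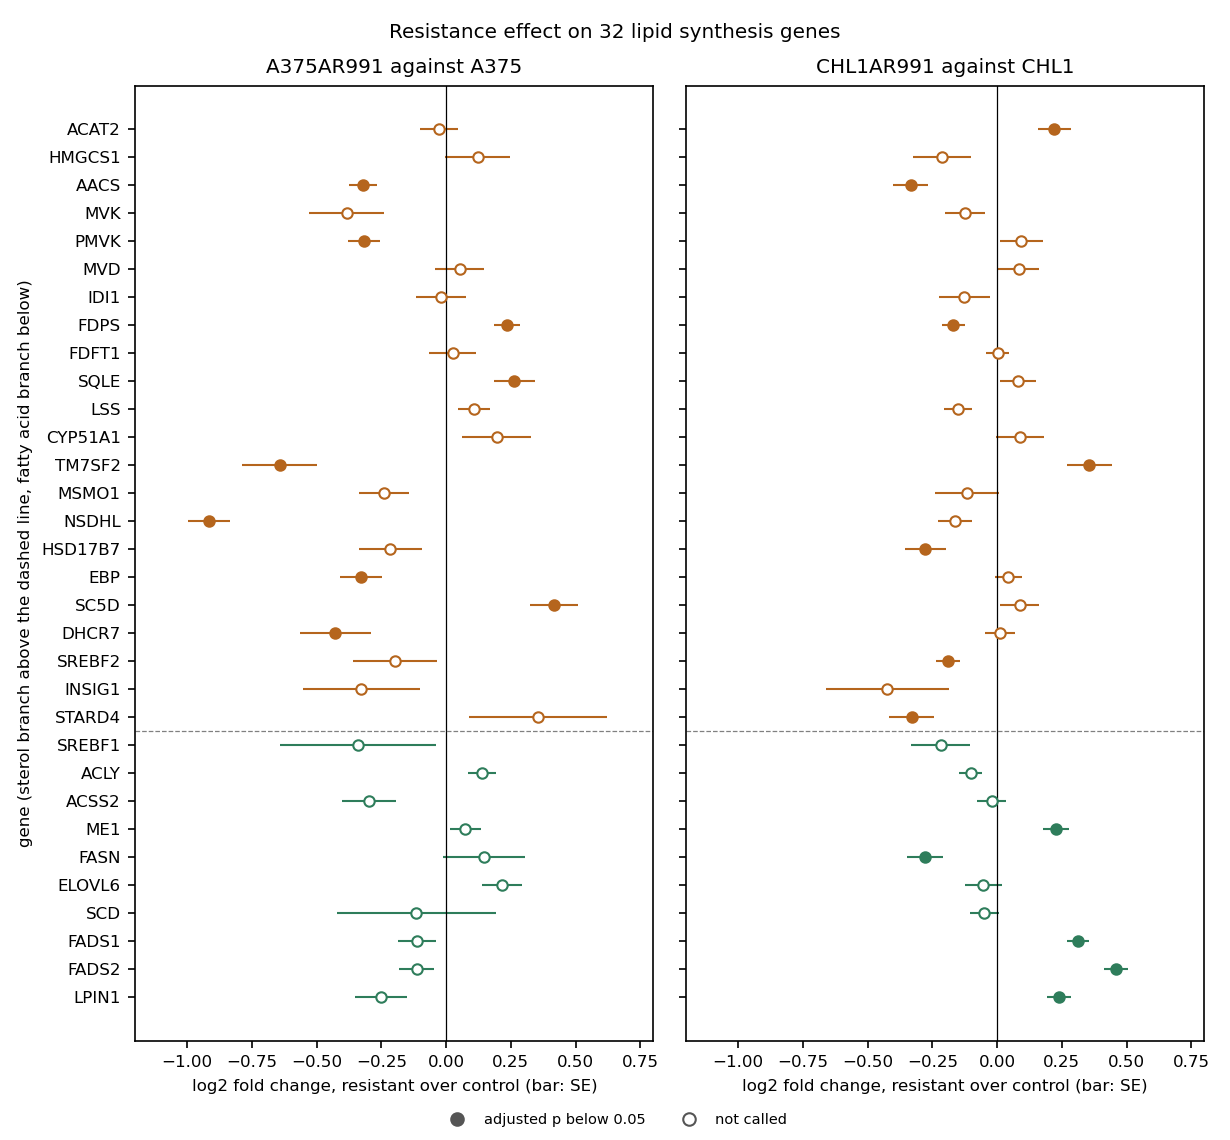
Log2 fold change of resistant over control cells (x axis) for 32 genes in pathway order (y axis), A375AR991 against A375 on the left and CHL1AR991 against CHL1 on the right; bars are SE and filled points have an adjusted p below 0.05. The most negative values on the left are those of NSDHL and TM7SF2, the most positive on the right is that of FADS2, and TM7SF2 and FDPS are filled on opposite sides of 0.

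Of the 3 genes that supply acetoacetyl-CoA and HMG-CoA, AACS was called in A375. AACS (ENSG00000081760), which activates the ketone body acetoacetate for lipid synthesis, had 44.5, 42.9 and 45.3 CPM in the A375AR991 libraries, against 54.9, 54.9 and 56.01 CPM in A375. The groups did not overlap, and the log2 fold change was -0.32 ± 0.054 (adjusted p = 0.00232). The copy AACSP1 had at most 164 counts in a library and may share some reads. The cytosolic thiolase ACAT2 (-0.028) and the HMG-CoA synthase HMGCS1 (0.12) were not called.

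Along the mevalonate pathway to farnesyl diphosphate the calls went both ways. PMVK (ENSG00000163344), the phosphomevalonate kinase, had 25.1, 25.4 and 24.8 CPM in A375AR991, against 31.99, 31.5 and 30.3 CPM in A375, a log2 fold change of -0.32 ± 0.062 (adjusted p = 0.0052). Its 3 resistant libraries lay close together and below each control library. FDPS (ENSG00000160752), which joins isoprene units to farnesyl diphosphate, had 117, 110.2 and 113 CPM in A375AR991, against 96.03, 94.2 and 98.6 CPM in A375. It was higher in each resistant library, with a log2 fold change of 0.23 ± 0.05 (adjusted p = 0.0081). The mevalonate kinase MVK (-0.38 ± 0.15, adjusted p = 0.0836), the decarboxylase MVD (0.052) and the isomerase IDI1 (-0.02) were not called, and MVK was called without A375 replicate 2 (adjusted p = 0.00775).

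Of the 3 genes from farnesyl diphosphate to lanosterol, SQLE was called. SQLE (ENSG00000104549), the squalene epoxidase, had 45.7, 39.6 and 38.7 CPM in A375AR991, against 34.1, 32.6 and 36.6 CPM in A375. The groups did not overlap and the log2 fold change was 0.26 ± 0.08 (adjusted p = 0.0373). The call was lost without A375 replicate 1 or 2 or any 1 of the 3 A375AR991 replicates (adjusted p from 0.0503 to 0.134). The squalene synthase FDFT1 (0.026) and the lanosterol synthase LSS (0.11) were not called.

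The 8 genes from lanosterol to cholesterol held 5 of the 9 calls, 4 of them lower. NSDHL (ENSG00000147383) had 14.98, 13.8 and 12.9 CPM in A375AR991, against 25.7, 26.1 and 26.9 CPM in A375. Its highest resistant library was far below the lowest control library, and the log2 fold change of -0.91 ± 0.081 (adjusted p = 8.79e-05) was the largest of the 32. TM7SF2 (ENSG00000149809) had 2.7, 3.35 and 2.8 CPM in A375AR991, against 5.05, 4.302 and 4.51 CPM in A375, a log2 fold change of -0.64 ± 0.15 (adjusted p = 0.0107). It was lower in each resistant library, at a low level in both groups.

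EBP (ENSG00000147155), the sterol isomerase, had 44.7, 49.8 and 44.6 CPM in A375AR991, against 52.9, 63.6 and 58.3 CPM in A375. Its groups did not overlap, the log2 fold change was -0.33 ± 0.082 (adjusted p = 0.0158), and the call was lost without A375AR991 replicate 1 or 3 (adjusted p = 0.062 and 0.0672). DHCR7 (ENSG00000172893) had 40.1, 29.1 and 29.4 CPM in A375AR991, against 48.02, 37.7 and 46.9 CPM in A375. Here the groups overlapped, since the first resistant library was above the second control library. The log2 fold change was -0.43 ± 0.14 (adjusted p = 0.0453), and the call was lost without A375 replicate 1 or 3 or A375AR991 replicate 2 or 3 (adjusted p from 0.123 to 0.167) and with a filter at 1 CPM.

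SC5D (ENSG00000109929) was the 1 late gene that was higher. It had 32.8, 28.1 and 26.99 CPM in A375AR991, against 21.5, 23.8 and 20.6 CPM in A375, with no overlap and a log2 fold change of 0.42 ± 0.093 (adjusted p = 0.0101). The lanosterol demethylase CYP51A1 (0.20), the C4-methyl oxidase MSMO1 (-0.24) and the ketoreductase HSD17B7 (-0.22) were not called. MSMO1, NSDHL and HSD17B7 act together to remove the methyl groups at carbon 4, and 1 of the 3 was called.

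Neither the regulators nor the carrier of the sterol branch was called in A375. SREBF2 (ENSG00000198911) had 81.4, 57.4 and 52.4 CPM in A375AR991, against 84.8, 62.5 and 72.1 CPM in A375, a log2 fold change of -0.20 ± 0.16 (adjusted p = 0.418). INSIG1 (ENSG00000186480) had 18.9, 12.6 and 10.8 CPM in A375AR991, against 21.7, 13.2 and 18.2 CPM in A375, a log2 fold change of -0.33 ± 0.23 (adjusted p = 0.328). In both genes the libraries of a group differed from each other by more than the group means did. STARD4 (ENSG00000164211), which carries sterol through the cytosol, had 14.8, 8.81 and 9.91 CPM in A375AR991, against 11.9, 5.82 and 8.504 CPM in A375, with overlapping groups and a log2 fold change of 0.35 ± 0.26 (adjusted p = 0.368).

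In the fatty acid branch 0 of 10 genes were called in A375 by edgeR and 0 by DESeq2, and 4 had an unadjusted p under 0.05. Those 4 were the acetyl-CoA synthetase ACSS2 (-0.30 ± 0.10, adjusted p = 0.0624), the elongase ELOVL6 (0.22 ± 0.077, adjusted p = 0.0657), the ATP citrate lyase ACLY (0.14 ± 0.055, adjusted p = 0.0948) and the phosphatidate phosphatase LPIN1 (-0.25 ± 0.10, adjusted p = 0.0998). ACSS2 was called without A375 replicate 2 (adjusted p = 0.0196) and without the low-count filter, and LPIN1 without A375AR991 replicate 1 (0.0324). With the replicate number as a block in the edgeR fit, ACLY, FASN and ELOVL6 were called higher and SREBF1, ACSS2 and LPIN1 lower, so the count of 0 depends on leaving the block out. SREBF1 (ENSG00000072310) had 174, 92.2 and 95.7 CPM in A375AR991, against 215, 98.1 and 145 CPM in A375, so the groups overlapped over most of their range. Its log2 fold change was -0.34 ± 0.30 (adjusted p = 0.45). Without the block the fatty acid synthase FASN (0.15 ± 0.16), SCD (-0.12 ± 0.31), the desaturases FADS1 (-0.11) and FADS2 (-0.11) and the malic enzyme ME1 (0.075), a source of NADPH, were not called either.

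Other genes of the same pathways were counted beside them. Over all genes tested in A375, 28.3% were called, 13.4% higher and 14.8% lower, with a median of -0.00084. Of 22 tested genes of sterol synthesis, uptake and SREBP control outside the 33, 0 were higher and 5 lower in A375AR991 cells, with a median of -0.074. The lower ones included ERLIN1 (-0.72), which takes part in sterol-regulated protein degradation in the endoplasmic reticulum, the lysosomal lipase LIPA (-0.91), the SREBP escort SCAP (-0.27) and the lipoprotein receptor LRP8 (-0.15). Of 30 tested genes of fatty acid and glycerolipid synthesis outside the 33, 3 were higher and 10 lower, with a median of -0.15. Among the lower were the enoyl reductase TECR (-0.56), the desaturase relative FADS3 (-0.79) and the diacylglycerol acyltransferase DGAT2 (-1.15). DGAT2 was at a low level, with 1.62 to 2.44 CPM in A375AR991 and 3.71 to 5.06 CPM in A375. The ketoacyl reductase HSD17B12 (0.23) was among the higher.

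The second comparison put the same question to CHL1AR991 cells against CHL1, and the fatty acid branch held the 3 smallest adjusted p-values. The desaturases FADS2 and FADS1 stood at 1.38 and 1.24 times their CHL1 levels, LPIN1 at 1.18 and ME1 at 1.17 times, while FASN stood at 0.824 times. In the sterol branch AACS, STARD4, HSD17B7, SREBF2 and FDPS were lower, and TM7SF2 and ACAT2 higher. Of 10 fatty acid genes 4 were higher, 1 lower and 5 not called, and of 22 sterol genes 2 were higher, 5 lower and 15 not called. The 12 calls among 32 genes (37.5%) are set against 21.2% of the 17219 genes tested, 9.11% higher and 12.1% lower. Medians were -0.12 over the sterol genes and -0.034 over the fatty acid genes, against 7.9e-05 over all genes tested.

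FADS2 (ENSG00000134824), the first desaturase of polyunsaturated fatty acid synthesis, had 220.4, 237 and 226 CPM in CHL1AR991, against 161, 159 and 176 CPM in CHL1. The log2 fold change was 0.46 ± 0.048 (adjusted p = 4.44e-05), the largest of the 32 in this line. FADS1 (ENSG00000149485), the desaturase that follows it, had 313, 319 and 314 CPM in CHL1AR991, against 245, 261 and 253 CPM in CHL1, a log2 fold change of 0.31 ± 0.042 (adjusted p = 2.66e-04). In both genes each resistant library was above each control library. The 2 genes lie beside each other on chromosome 11 and overlap on opposite strands in the annotation used here, and FEN1 overlaps FADS2. The library kit does not mark strand, so reads of the overlap cannot be told apart. MVK with MMAB, SREBF1 with RAI1 and ACSS2 with GGT7 also overlap on opposite strands.

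LPIN1 (ENSG00000134324), which makes diacylglycerol from phosphatidate, had 87.7, 87.7 and 85.3 CPM in CHL1AR991, against 74.4, 73.8 and 72.03 CPM in CHL1, a log2 fold change of 0.24 ± 0.046 (adjusted p = 0.00283). ME1 (ENSG00000065833) had 75.3, 77.7 and 76.3 CPM in CHL1AR991, against 66.5, 66.7 and 61.97 CPM in CHL1, a log2 fold change of 0.23 ± 0.05 (adjusted p = 0.00651). The libraries of each group stood close together in both genes and did not overlap with the other group. FASN (ENSG00000169710) went the other way, with 720.2, 780.1 and 698 CPM in CHL1AR991, against 850.3, 813 and 998 CPM in CHL1. Its log2 fold change was -0.28 ± 0.07 (adjusted p = 0.0145), and the call was lost without CHL1AR991 replicate 3 (adjusted p = 0.0718).

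SREBF1 had 64.9, 67.9 and 47.6 CPM in CHL1AR991, against 66.98, 63.5 and 78.9 CPM in CHL1, with overlapping groups and a log2 fold change of -0.22 ± 0.11 (adjusted p = 0.216). ACLY (-0.10 ± 0.043, adjusted p = 0.119), ACSS2 (-0.02), ELOVL6 (-0.053) and SCD (-0.049) were not called. Of the 4 genes of elongation and desaturation, the 2 of the polyunsaturated route were called and the 2 that act on palmitate and its products were not.

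In the sterol branch of CHL1 the regulator SREBF2 was lower. SREBF2 had 224, 232 and 212 CPM in CHL1AR991, against 250, 249 and 262 CPM in CHL1, a log2 fold change of -0.19 ± 0.045 (adjusted p = 0.011). Each resistant library lay below each control library, and the call was lost without CHL1AR991 replicate 3 (adjusted p = 0.0673). INSIG1 had 51.1, 31.5 and 31.1 CPM in CHL1AR991, against 73.8, 40.4 and 37.4 CPM in CHL1. The first library was the highest in both groups, the groups overlapped, and the log2 fold change of -0.42 ± 0.24 was not called (adjusted p = 0.245). The value of INSIG1 moved when 1 of the libraries numbered 1 was left out, and less when both were. It was called lower without CHL1AR991 replicate 1 (-0.70, adjusted p = 0.0479) and stood at -0.044 without CHL1 replicate 1. Without the libraries numbered 1 of both groups it was called lower at -0.32 (adjusted p = 0.016). With all 6 libraries it was called lower without the low-count filter (adjusted p = 1.18e-08).

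STARD4 had 20.1, 19.01 and 18.98 CPM in CHL1AR991, against 27.2, 23.8 and 21.6 CPM in CHL1, a log2 fold change of -0.33 ± 0.085 (adjusted p = 0.0164). The groups did not overlap, and the call was lost without CHL1 replicate 1 or CHL1AR991 replicate 2 or 3 (adjusted p from 0.05 to 0.0786). AACS had 18.4, 19.7 and 18.98 CPM in CHL1AR991, against 24.5, 24.4 and 22.9 CPM in CHL1, a log2 fold change of -0.33 ± 0.067 (adjusted p = 0.00384). The AACS groups did not overlap, and the call held without any 1 library. ACAT2 (ENSG00000120437), the thiolase of the first step, was higher, with 55.5, 49.1 and 53.1 CPM in CHL1AR991, against 47.7, 44.5 and 42.8 CPM in CHL1. Its log2 fold change was 0.22 ± 0.063 (adjusted p = 0.0276), and the call was lost without CHL1 replicate 2 or 3 or CHL1AR991 replicate 1 or 3 (adjusted p from 0.0753 to 0.0866). ACAT2 overlaps TCP1 on the opposite strand in the annotation used here.

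FDPS had 93.5, 92.7 and 96.4 CPM in CHL1AR991, against 109.8, 104 and 103 CPM in CHL1, a log2 fold change of -0.17 ± 0.046 (adjusted p = 0.0212). The groups did not overlap, and the call was lost without CHL1 replicate 1 or 2 or CHL1AR991 replicate 2 or 3 (adjusted p from 0.0522 to 0.112). TM7SF2 was higher, with 11.04, 12.1 and 11.5 CPM in CHL1AR991, against 9.34, 8.202 and 9.46 CPM in CHL1. Its log2 fold change was 0.36 ± 0.087 (adjusted p = 0.0123), lost without CHL1 replicate 2 (adjusted p = 0.057), and VPS51 overlaps it on the same strand. HSD17B7 (ENSG00000132196) had 12.8, 11.7 and 11.4 CPM in CHL1AR991, against 15.1, 13.9 and 14.4 CPM in CHL1. It was lower in each resistant library, with a log2 fold change of -0.28 ± 0.08 (adjusted p = 0.0289). The call was lost with DESeq2 and without CHL1 replicate 1, 2 or 3 or CHL1AR991 replicate 2 or 3 (adjusted p from 0.0514 to 0.12). The copy HSD17B7P2, with up to 101 counts in a library, may share its reads, so its value is uncertain.

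INSIG1 and 14 other sterol genes were not called in CHL1. The log2 fold changes of the 14 ran from -0.21 for HMGCS1 to 0.094 for PMVK, and SC5D, EBP and DHCR7, called in A375, stood at 0.087, 0.043 and 0.011. HMGCS1 was called without CHL1 replicate 3 (adjusted p = 0.0219). Over all genes tested in CHL1, 21.2% were called, 9.11% higher and 12.1% lower, with a median of 7.9e-05. Of 23 tested genes of sterol synthesis, uptake and SREBP control outside the 33, 5 were higher and 4 lower in CHL1AR991, with a median of -0.049. The higher ones included the lysosomal sterol carrier NPC2 (0.31), ERLIN2 (0.23) and the SREBP protease MBTPS2 (0.21). Of 31 tested genes of fatty acid and glycerolipid synthesis outside the 33, 3 were higher and 8 lower, with a median of -0.11. The lipid droplet protein PLIN2 (-0.34) and the acyl-CoA synthetase ACSL1 (-0.32) were lower. The ketoacyl reductase HSD17B12 (0.26) was higher, as it was in A375AR991 (0.23).

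The third comparison asked whether the resistance effect differed between the lines, as the log2 fold change of A375AR991 against A375 minus that of CHL1AR991 against CHL1 in 1 fit of 12 libraries. It did for 10 of 32 genes (31.2%), 3 with a higher and 7 with a lower value in A375, against 23.6% of the 19241 genes tested, 11.7% higher and 11.9% lower. TM7SF2 (-1.003 ± 0.16, adjusted p = 3.65e-04) and FDPS (0.40 ± 0.066, adjusted p = 4.84e-04) were called in opposite directions in the 2 lines. NSDHL (-0.76 ± 0.10, adjusted p = 1.08e-04), PMVK (-0.41 ± 0.11, adjusted p = 0.0147) and EBP (-0.38 ± 0.10, adjusted p = 0.0125) were lower in A375AR991 and not called in CHL1. FADS2 (-0.58 ± 0.082, adjusted p = 1.39e-04), LPIN1 (-0.50 ± 0.12, adjusted p = 0.00577) and FADS1 (-0.43 ± 0.088, adjusted p = 0.00237) were higher in CHL1AR991 and not called in A375. AACS was the 1 gene called in the same direction in both, and its 2 effects differed by 0.0084 ± 0.079 (adjusted p = 0.959). Each line gave 1 derivative, with the drug raised over 7 months for A375AR991 and 3 months for CHL1AR991. A difference by line, by length of escalation or by derivative therefore cannot be told apart.

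LSS and ACLY differed between the lines without a call in either. LSS (ENSG00000160285) had 50.9, 47 and 45.6 CPM in A375AR991 and 45.7, 42.9 and 44.8 CPM in A375, and 72.7, 78.4 and 74.01 CPM in CHL1AR991 and 88.2, 78.3 and 82.97 CPM in CHL1. The difference of 0.26 ± 0.086 (adjusted p = 0.0436) was lost without A375 replicate 1, 2 or 3, A375AR991 replicate 1, CHL1 replicate 1 or CHL1AR991 replicate 1 or 3 (adjusted p from 0.0501 to 0.124). ACLY (ENSG00000131473) had 411, 380 and 378 CPM in A375AR991 and 363, 335 and 364 CPM in A375, and 488, 517 and 494 CPM in CHL1AR991 and 536, 528 and 542 CPM in CHL1. Its resistant libraries were all above the controls in A375 and all below them in CHL1, and the difference of 0.24 ± 0.07 (adjusted p = 0.0229) was lost without A375AR991 replicate 1 or CHL1AR991 replicate 1 or 3 (adjusted p from 0.0579 to 0.0666). The EBP difference was lost without A375AR991 replicate 3 (adjusted p = 0.0504). Across the 32 genes the 2 effects had the same sign in 17, with a Pearson r of -0.026 and a Spearman rho of 0.002, given as a description across genes, which are not independent replicates. The 2 comparisons share no library.

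**Figure D2:**
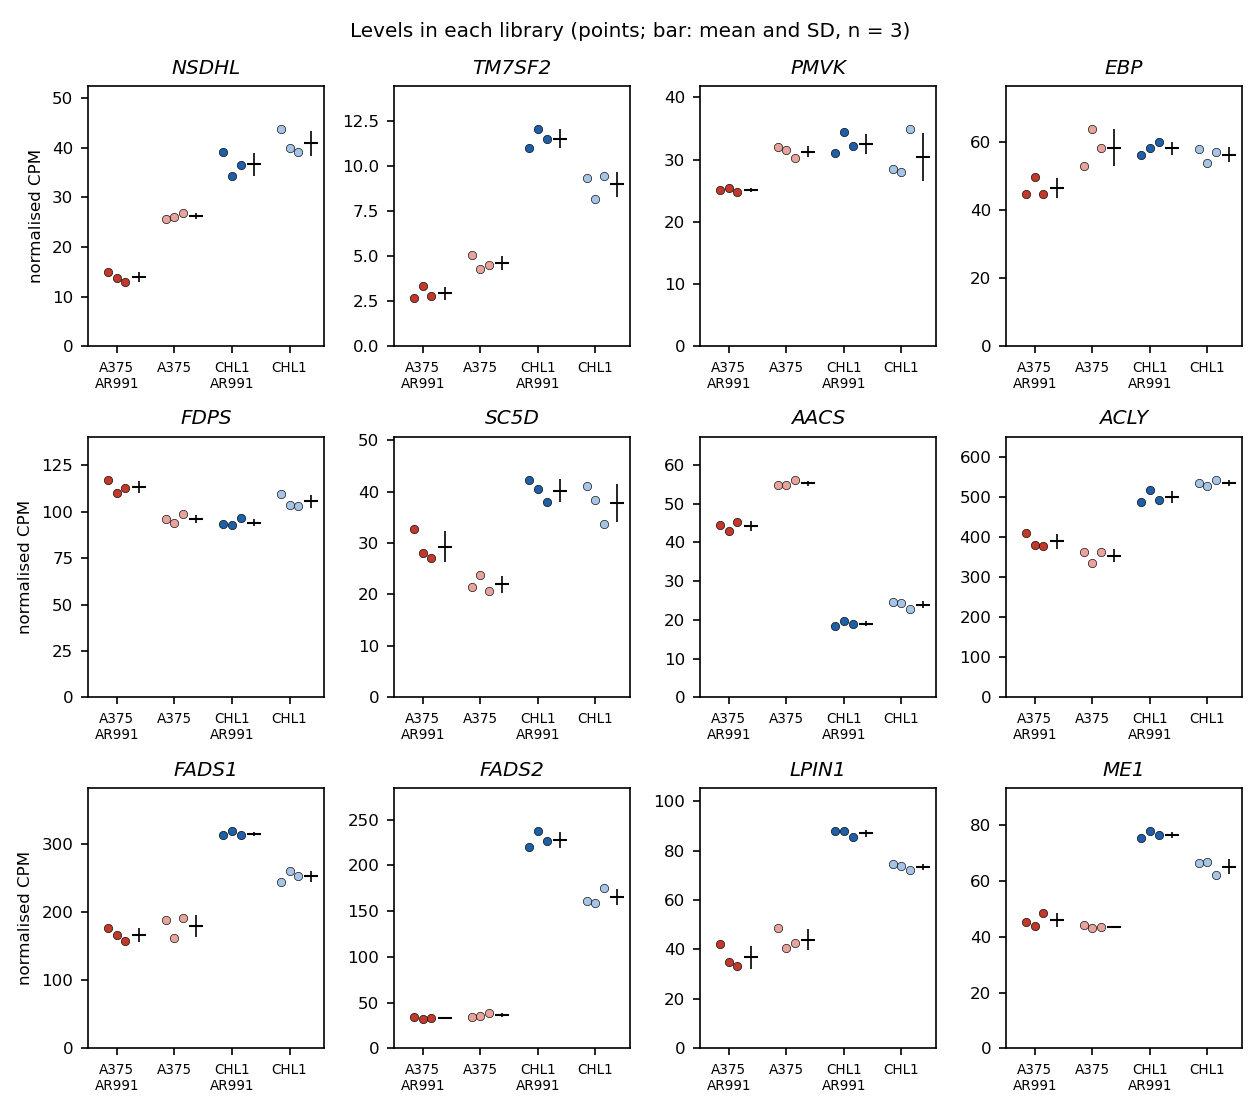
Normalised CPM (y axis, from 0) in each of the 12 libraries for 12 genes; groups run A375AR991, A375, CHL1AR991 and CHL1, points are libraries and bars are mean and SD over 3 libraries. NSDHL, TM7SF2 and PMVK are lower in A375AR991 than in A375, FADS1, FADS2, LPIN1 and ME1 are higher in CHL1AR991 than in CHL1, and AACS is lower in both resistant groups.

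Some of these genes lie among neighbours with like fold changes. In A375 the 20 nearest tested protein-coding genes around NSDHL on chromosome X had a median log2 fold change of -0.98, with 18 of 20 called lower, beside -0.91 for NSDHL. Around TM7SF2 on chromosome 11 the median was -0.56, with 16 of 20 called lower, beside -0.64 for TM7SF2. SCD on chromosome 10 stood at -0.12 beside a neighbour median of -0.56 with 17 of 20 called lower. The neighbour medians of the other 7 genes called in A375 lay between -0.083 (EBP) and 0.16 (SC5D). In CHL1 the medians around FADS1 and FADS2 were 0.18 and 0.17, with 7 of 20 called higher, and that around TM7SF2 was 0.16 with 5 of 20 called higher. FADS1 and FADS2 each count among the other's neighbours. Around AACS in CHL1 the median was -0.16, with 8 of 20 called lower. Other genes did not follow their neighbours in CHL1. Around LSS the median was 0.18, with 7 of 17 called higher, beside -0.15 for LSS. Around DHCR7 it was 0.15, with 8 of 20 called higher, beside 0.011 for DHCR7. What part position had in these values was not tested. Neighbours were not looked up for genes outside the list, such as ERLIN1 and LIPA, which were lower in A375AR991.

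**Figure D3:**
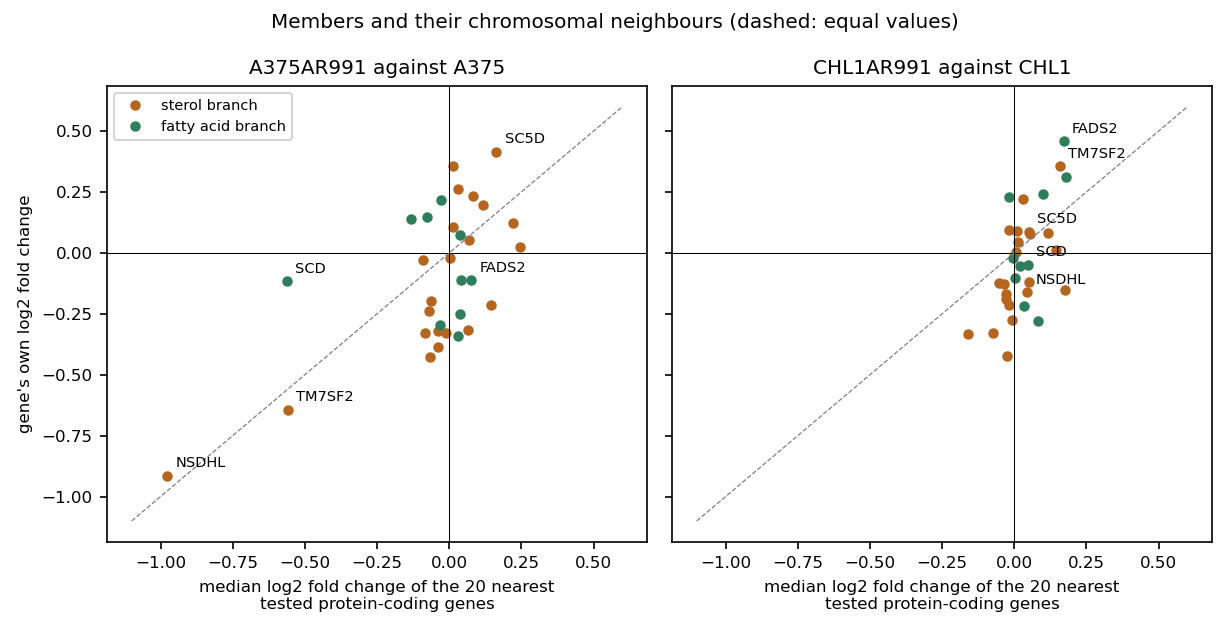
Log2 fold change of each of the 32 genes (y axis) against the median log2 fold change of up to 20 nearest tested protein-coding genes (x axis), A375AR991 against A375 on the left and CHL1AR991 against CHL1 on the right; the dashed line marks equal values. NSDHL and TM7SF2 lie near the dashed line at the lower left of the A375 panel, and SCD lies above it.

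Some of the genes also varied widely between libraries of the same group. Among 9972 genes of at least 10 CPM in A375AR991 the median coefficient of variation (SD over mean of 3 libraries) was 5.09%, against 38.2% for SREBF1, 32.1% for SCD, 29.96% for INSIG1, 28.8% for STARD4 and 24.3% for SREBF2. In A375 it was 41.5% for SCD, 38.5% for SREBF1 and 24.2% for INSIG1, against a median of 6.16% over 9956 genes. In CHL1AR991 and CHL1 the spread of INSIG1 was 30.2% and 39.95%, above 99.9% and 99.8% of genes, and that of SREBF1 was 18.2% and 11.5%, above 98.8% and 94.5% of genes. SCD stood at 7.23% and 5.68%, above 75.4% and 63.9% of genes, and SREBF2 at 4.67% and 2.797%, against medians of 4.67% and 4.47% over all genes. In CHL1 the HMG-CoA synthase HMGCS1 (20.03%) and MSMO1 (19%) also varied. Over the listed genes of at least 10 CPM the median was 8.9% in A375AR991, 8.28% in A375, 4.51% in CHL1AR991 and 5.98% in CHL1. The medians over all such genes were 5.09%, 6.16%, 4.67% and 4.47%.

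In many of these genes the same library was the highest of its group. SCD (ENSG00000099194) had 193, 114 and 116 CPM in A375AR991, 209.8, 84.6 and 164 CPM in A375, 287, 266 and 249 CPM in CHL1AR991 and 289, 259 and 279.8 CPM in CHL1, so the library numbered 1 was the highest in each group. INSIG1, STARD4, MSMO1, IDI1, FDFT1, DHCR7, HSD17B7 and LPIN1 were likewise highest in the library numbered 1 in all 4 groups. Of the genes of at least 10 CPM, that library was the highest for 21 of 29 in A375AR991, 15 of 28 in A375, 15 of 32 in CHL1AR991 and 21 of 31 in CHL1. Over all genes of at least 10 CPM the shares were 41.2%, 31.8%, 32.5% and 35.4%. The labels give no more than the replicate number for these libraries, and what set them apart was not tested.

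**Figure D4:**
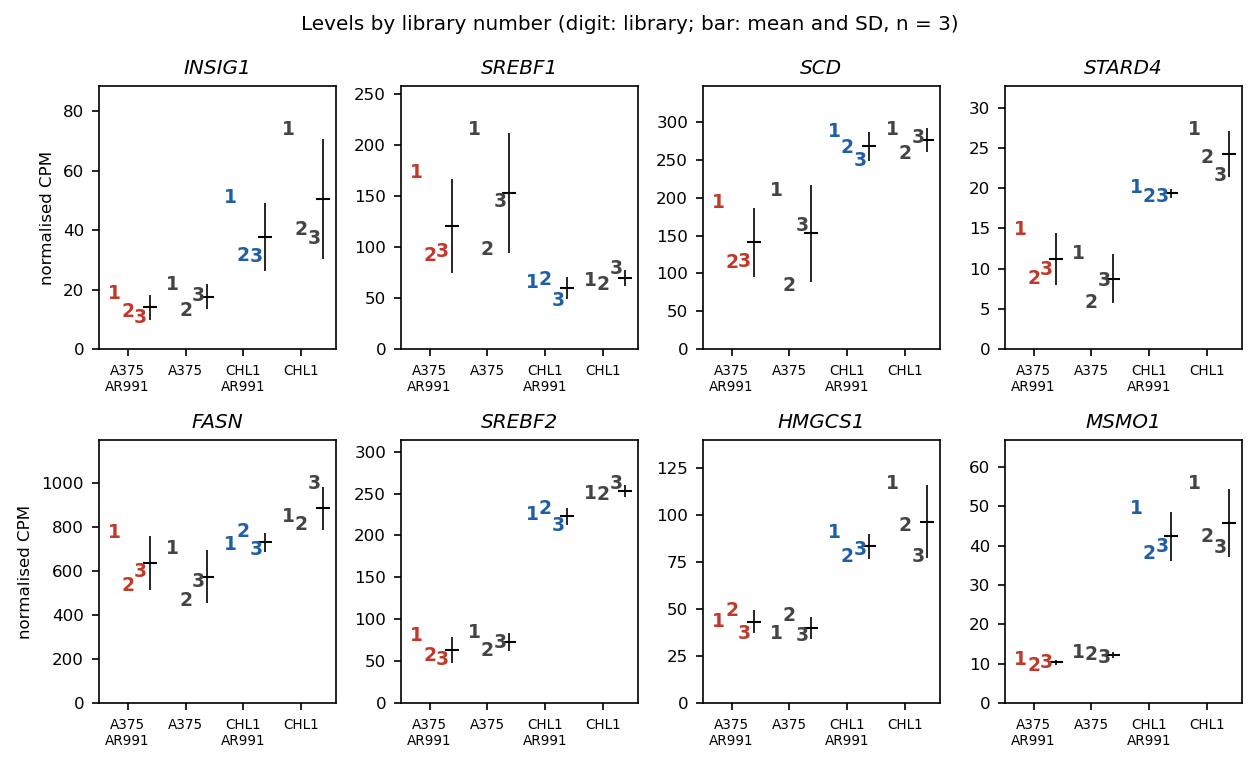
Normalised CPM (y axis, from 0) of 8 genes in each library, with the digit standing for the replicate number and bars for mean and SD over 3 libraries; groups run A375AR991, A375, CHL1AR991 and CHL1. The digit 1 is the highest in all 4 groups for INSIG1 and SCD, and also for STARD4 and MSMO1, and in both A375 groups but neither CHL1 group for SREBF1, SREBF2 and FASN.

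With the 2 libraries numbered 1 left out of each line, an alternative chosen after seeing the data, the calls thinned. In A375 4 of 22 sterol genes were then called, 0 higher and 4 lower. AACS (-0.33, adjusted p = 0.0241), NSDHL (-0.98, adjusted p = 0.00231), EBP (-0.37, adjusted p = 0.0328) and DHCR7 (-0.53, adjusted p = 0.0262) were called, while TM7SF2 (-0.51, adjusted p = 0.107), SC5D (0.31, adjusted p = 0.0882), PMVK (-0.30, adjusted p = 0.0556), FDPS (0.21, adjusted p = 0.0634) and SQLE (0.18, adjusted p = 0.212) were not. In CHL1 4 sterol genes were called, AACS (-0.29, adjusted p = 0.0411), TM7SF2 (0.42, adjusted p = 0.0264), SREBF2 (-0.20, adjusted p = 0.04) and INSIG1 (-0.32, adjusted p = 0.016). The 5 fatty acid genes called in CHL1 were called here too. This fit had 4 libraries in place of 6.

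The last comparisons set line against line, and most of these genes were lower in A375 than in CHL1 cells. Among control cells FADS2 was 4.602-fold lower in A375, MSMO1 3.72-fold, SREBF2 3.47-fold, SQLE 2.904-fold and INSIG1 2.86-fold lower. Higher in A375 were ELOVL6 (2.496-fold), AACS (2.31-fold) and SREBF1 (2.19-fold). For A375 against CHL1, 26 of 32 genes were lower, 3 higher and 3 (ACAT2, PMVK and EBP) not called, against 75.6% of 19241 genes called, 38.2% higher and 37.4% lower. For A375AR991 against CHL1AR991, 26 were lower, 4 higher (AACS, FDPS, SREBF1 and ELOVL6) and 2 (ACAT2 and FASN) not called, against 76.6% of genes, 38% higher and 38.6% lower. Each line had its own table and is 1 line, so these values describe these 2 lines, and a difference between lines and one between tables cannot be told apart.

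The sterol branch had a median log2 difference of -0.84 between the resistant lines and -0.81 between the control lines, against 0.0067 and 0.025 over all genes tested. The fatty acid branch had -0.74 and -0.59. Scaling by library totals alone moved the median of all genes by 0.11 in both comparisons, and relative to it the sterol medians were -0.84 and -0.84 and the fatty acid medians -0.74 and -0.61. FDPS then lost its call between the control lines, and ACAT2 and EBP were called higher in A375.

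**Figure D5:**
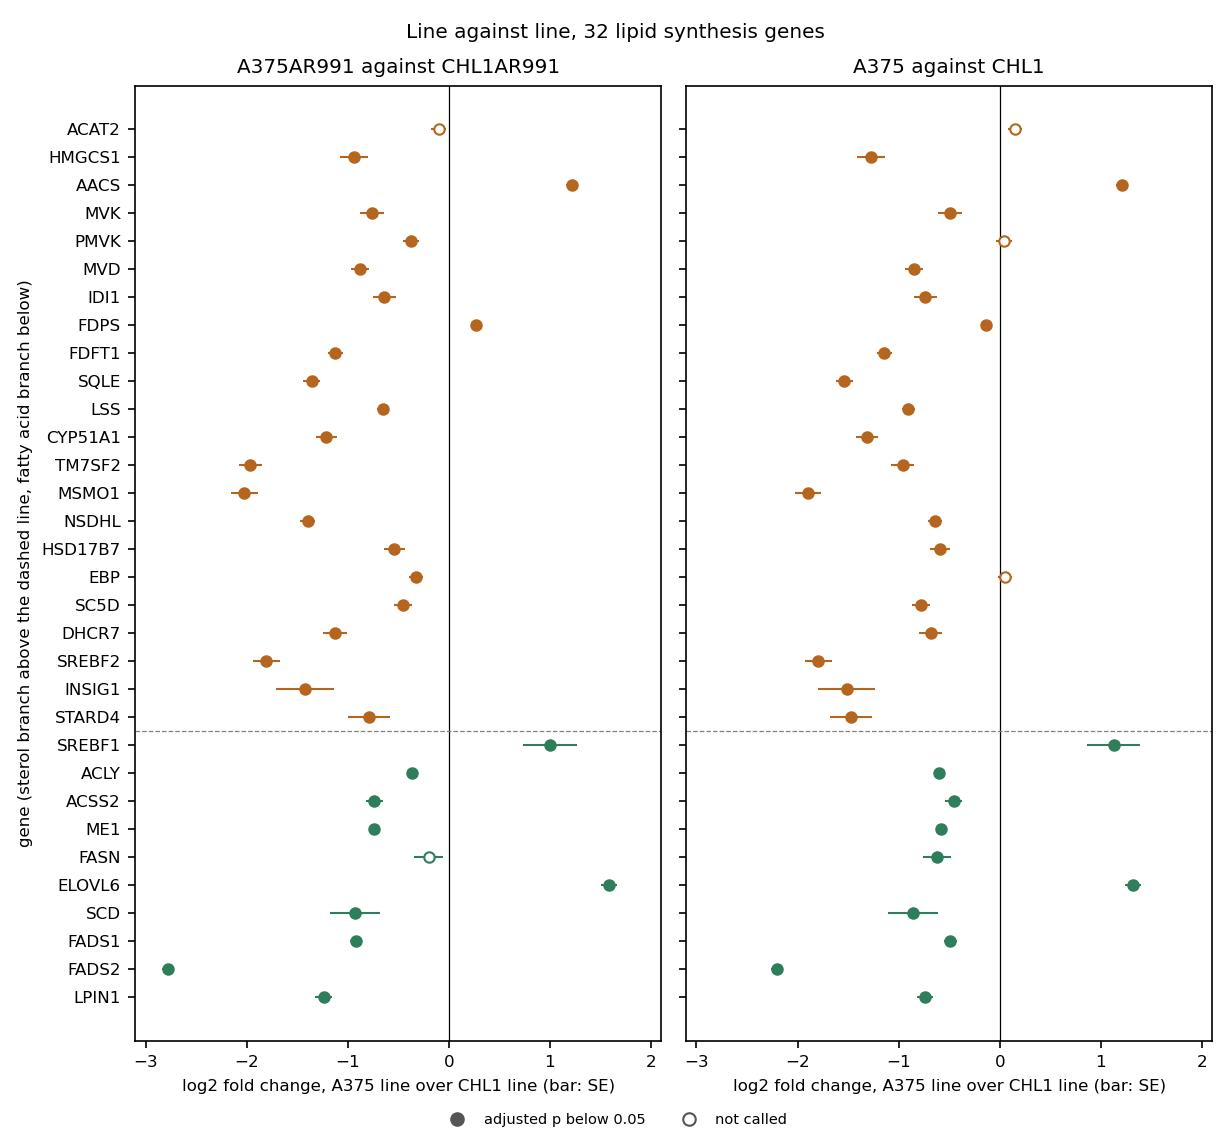
Log2 difference of the A375 line over the CHL1 line (x axis) for 32 genes in pathway order (y axis), resistant lines on the left and control lines on the right; bars are SE and filled points have an adjusted p below 0.05. Most points lie below 0 in both panels, FADS2 lowest, while AACS, SREBF1 and ELOVL6 lie above 0 in both.

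The regulators of the 2 branches stood on opposite sides. SREBF2 averaged 73.1 ± 11.2 CPM in A375 and 253 ± 7.09 CPM in CHL1 (SD, n = 3 each), a log2 difference of -1.79 ± 0.13 (adjusted p = 8.18e-09). SREBF1 averaged 153 ± 58.7 CPM in A375 and 69.8 ± 8.06 CPM in CHL1 (SD, n = 3 each), a log2 difference of 1.13 ± 0.26 (adjusted p = 0.00119). The lowest A375 library of SREBF1 was still above the highest CHL1 library. Of the 10 fatty acid genes 8 were lower in A375, among them FASN (-0.62), SCD (-0.85), FADS1 (-0.49) and FADS2 (-2.20). The 2 higher ones were SREBF1 itself and ELOVL6 (1.32). What part SREBF1 had in these levels was not tested.

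Of the desaturases FADS2 had the largest log2 difference. It averaged 33.2 ± 1.16 CPM in A375AR991 and 228 ± 8.46 CPM in CHL1AR991 (SD, n = 3 each), a 6.86-fold lower level in A375AR991 (log2 difference -2.78 ± 0.06, adjusted p = 7.39e-15). In the control cells it averaged 35.9 ± 2.16 CPM in A375 and 165 ± 8.8 CPM in CHL1 (SD, n = 3 each). The neighbouring FADS1 averaged 167 ± 9.97 CPM in A375AR991 and 315 ± 3.21 CPM in CHL1AR991 (SD, n = 3 each), a log2 difference of -0.92 ± 0.062. ELOVL6, which extends palmitate to stearate, averaged 61.5 ± 2.79 CPM in A375AR991 and 20.5 ± 0.887 CPM in CHL1AR991 (SD, n = 3 each), 2.999-fold higher in A375AR991.

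In the sterol branch MSMO1 had the lowest log2 difference between the resistant lines. It averaged 10.4 ± 0.686 CPM in A375AR991 and 42.4 ± 6.14 CPM in CHL1AR991 (SD, n = 3 each), a log2 difference of -2.02 ± 0.13 (adjusted p = 1.67e-09). The 8 genes from lanosterol to cholesterol were all lower in A375AR991 than in CHL1AR991, from -0.33 for EBP to -2.02 for MSMO1. Between the control lines 7 of the 8 were lower in A375, and EBP was not called (0.052). FDPS was higher in A375AR991 (0.27 ± 0.046, adjusted p = 9.49e-05) and lower in control A375 (-0.13 ± 0.046, adjusted p = 0.0177). The call between the control lines was lost without A375 replicate 2 (adjusted p = 0.0629) or CHL1 replicate 1 (0.0872), and FASN was called between the resistant lines without A375AR991 replicate 1 (adjusted p = 0.0211).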

How the data were processed

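The deposited tables hold raw read counts per Ensembl gene, 1 table for each line. Per the submitters' processing notes, CASAVA 1.8.2, cutadapt 1.7, TopHat2, HTSeq 0.5 and limma were used by the authors; no settings, genome build or annotation behind these counts could be read from the sources used here. Per the labels' protocols the libraries came from total RNA with the TruSeq kit, version 2.

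The 6 libraries of each line were fitted with edgeR 4.0.16 (TMM, filterByExpr with a minimum count of 10, quasi-likelihood F-test, two-sided), and all 12 libraries over 29735 shared genes for comparisons between lines. Benjamini-Hochberg adjustment ran over all genes tested, and the SE is the log2 fold change over the square root of F. DESeq2 1.42.0, R 4.3.3 and Python 3.11.15 were also used, and the fits were tested on simulated data. Replicate numbers were checked by correlating the deviations of log CPM from group means between libraries.

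The genes and lists were chosen with earlier results of these data known. Values in every library were printed for genes called in either line or in their difference, up to 10 per comparison by size of log2 fold change, and for SREBF1, SREBF2 and INSIG1; those of SCD and the genes that vary most between libraries were added after their values were seen. Lists of other genes covered sterol synthesis, uptake and SREBP control, LXR and efflux, fatty acid and glycerolipid synthesis, and fatty acid oxidation. Alternatives were another scaling (RLE or library totals), no filter or 1 CPM in 3 libraries, DESeq2, the replicate number as a block, and leaving out each library. Chromosome order for neighbours and overlaps came from GENCODE annotation, and 3 counts were taken as the floor.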

Additional observations from a re-analysis of the deposited data

Results flagged for a closer look

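The resistance effect differed between the lines, by the test of the difference itself (log2 fold change in A375 minus that in CHL1, edgeR adjusted p over all genes), for 10 genes. In the sterol branch the differences were -1.003 for TM7SF2 (adjusted p = 3.65e-04), -0.76 for NSDHL (1.08e-04), -0.41 for PMVK (0.0147), -0.38 for EBP (0.0125), 0.40 for FDPS (4.84e-04) and 0.26 for LSS (0.0436). In the fatty acid branch they were -0.58 for FADS2 (1.39e-04), -0.50 for LPIN1 (0.00577), -0.43 for FADS1 (0.00237) and 0.24 for ACLY (0.0229). TM7SF2, LPIN1, FADS1, FADS2, NSDHL and FDPS kept this call under every alternative run. Line, length of escalation and derivative cannot be told apart in these differences.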

How the results depend on the processing

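No called gene changed sign under any alternative run. In A375 AACS and NSDHL, and in CHL1 AACS, ME1, LPIN1, FADS1 and FADS2, were called under every alternative. In A375 9 sterol genes were called, 6 to 9 with 1 library left out and 4 without the libraries numbered 1, when calls over all genes went to 3161, against 5111 in the fit of 6 libraries. The fatty acid genes of A375 had 0 calls, 0 to 1 with 1 library left out and 1 without the low-count filter. In CHL1 7 sterol genes were called, 2 to 7 with 1 library left out and 4 without the libraries numbered 1. The cause was not tested, beyond the smaller number of libraries. The fatty acid genes of CHL1 had 4 to 5 calls with 1 library left out, and those of the difference between lines 3 to 6, beside 5 to 8 sterol genes. Other scaling, a filter at 1 CPM and DESeq2 moved no count by more than 1.5 times.

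With the replicate number as a block, 6 fatty acid genes were called in A375, 3 higher (ACLY, FASN and ELOVL6) and 3 lower (SREBF1, ACSS2 and LPIN1), and 11 sterol genes, and INSIG1 was called lower in CHL1 (-0.40), while calls over all genes came to 6307 in A375, against 5111 without it, and to 4305 in CHL1, against 3645. The correlation of same-numbered libraries' deviations was 0.263, 0.274 and -0.0068 in A375 and 0.146, 0.007 and 0.033 in CHL1. That of libraries with unlike numbers ran from -0.311 to 0.071 in A375 and from -0.096 to 0.070 in CHL1. The own number was not the best match throughout, so the numbers were not taken as a pairing. The fatty acid calls in A375 depend on that choice. Best correlation with the own number held for libraries numbered 1 and 2 in A375 and 1 in CHL1. With 3 libraries a group, changes near 0.2 on the log2 scale were called in some genes and not in those with wide spread.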

Other observations

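Genes that burn or export lipid were counted in the same fits. Of 19 tested genes of fatty acid oxidation, 2 were higher and 4 lower in A375AR991 than in A375, with a median log2 fold change of -0.030, where 28.3% of all genes tested were called. The carnitine palmitoyltransferase CPT1A (-0.60), the carnitine carrier SLC25A20 (-0.45) and the transcription factor PPARA (-0.70) were lower, and the acyl-CoA dehydrogenase ACADL was higher at a low level, with 0.607, 0.957 and 1.005 CPM in A375AR991, against 0.228, 0.0371 and 0.11 CPM in A375. In CHL1AR991 3 of 17 were higher and 7 lower, with a median of -0.086, where 21.2% of all genes tested were called. SLC25A20 (-0.58), CPT1A (-0.29) and CPT2 (-0.41) were lower and ACADVL (0.33) was higher. CPT1A and SLC25A20 were called lower in both resistant lines.

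Of 11 tested LXR and sterol efflux genes, 2 were higher and 0 lower in A375AR991, with a median of -0.015, beside 28.3% of all genes. MYLIP, a ubiquitin ligase for lipoprotein receptors, stood at 0.50, and the other, with the larger change, is not reported here. In CHL1AR991 1 of 10 was higher and 2 lower, with a median of -0.19, beside 21.2% of all genes. These were OSBPL1A (0.21), a sterol-binding protein, and the LXR targets LPCAT3 (-0.34) and SMPDL3A (-0.33).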
